A study of Mus musculus with 6 samples.

Results

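The expression of 33 genes for protein folding and quality control in the endoplasmic reticulum (ER) was followed in mouse embryonic fibroblasts with and without sodium arsenite. The genes were chosen by name: chaperones, folding enzymes, sensors of the unfolded protein response and components of ER-associated degradation, each matched by symbol to its Ensembl gene ID among the 37224 IDs of the deposited RNA-seq table. All 33 were found, and 32 reached an RPKM (reads scaled to gene length and library size) of at least 1 in any library, as 12588 genes of the table did. The remaining gene, Derl3, had 1 read in the wild-type control and was listed at 0 in the other 3 libraries.

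The cells were fibroblasts on a C57BL/6 background, labelled as primary, either wild type or labelled Dot1L-/- (Dot1L is an enzyme that methylates histone H3). Both were grown with fetal bovine serum and given 0 µM or a low dose of sodium arsenite (trivalent inorganic arsenic) over 24 h; the protocol lists 5 and 10 µM and does not say which of these the sequenced cells received. How the null cells were derived, and from how many embryos or clones, is not in the labels. Each of the 4 groups held 1 library, so every comparison below is of a library with a library, without replicates and without a test. Intervals in parentheses are 95% intervals that cover counting error only.

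The controls were sequenced to 62972880 reads (wild type) and 64699847 (null), and the arsenite libraries to 10833103 and 11879632, as recovered from the steps of the RPKM values. The 100 most abundant genes took 34.6% and 41.3% of the reads in the arsenite libraries, against 16.5% and 20.2% in the wild-type and null controls; this bears on every share and RPKM below, and its part in the results was not tested. The libraries labelled null held less Dot1l RNA than their wild-type counterparts, 9.59 against 30.4 RPKM untreated and 1.24 against 5.71 with arsenite. Of 11 fibroblast markers, 8 passed the filter, with summed RPKM between 2275 and 12118 (up to 10957 of it from S100a4), while Thy1 was listed at 0 in all 4 libraries. Summed markers of endothelial, epithelial and skeletal muscle cells did not exceed 3.07 RPKM in any library. Higher sums were found for neural and glial markers (34.7 to 122, highest for Tubb3), cartilage and bone (13.3 to 37.8), leukocytes (4.81 to 23.8) and adipocytes (1.44 to 22.6); their part in the results was not tested. In such bulk libraries, fewer cells with a transcript and less of it per cell cannot be told apart.

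Proteins that enter the secretory pathway are threaded into the ER through the Sec61 channel, folded by chaperones of the Hsp70 and Hsp90 families and by the calnexin and calreticulin lectins, and joined by disulfide bonds through protein disulfide isomerases. Proteins that do not fold are handed back to the cytosol and degraded. When unfolded proteins accumulate, the sensors IRE1 (gene Ern1), ATF6 and PERK (gene Eif2ak3) start the unfolded protein response: IRE1 splices the Xbp1 transcript into the form that encodes the active factor, and cleaved ATF6 enters the nucleus. Both factors act on ER stress elements in the promoters of chaperone genes. Fibroblasts secrete large amounts of matrix protein and depend on this machinery.

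The ER stress element was therefore looked for in the promoters. The choice of genes is not independent of it, because they were picked by name for the machinery on which this response acts. A larger share with the element than among all genes is thus no separate finding. RefSeq promoter windows (GRCm38.p6, 250 bases before to 50 after the start of the gene) were found for 28 of the 33 genes; Atf6, Derl1, Hyou1, Manf and Sil1 had no entry. The letters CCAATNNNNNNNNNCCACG, on either strand, were present in the promoters of 9 of these 28 genes (32.1%) and in those of 37 of 27025 genes with an entry (0.137%; 0.119% of all 32851 windows). Thus 24.3% of all genes with this match were among the 33. The matching stretches are shown 5′ to 3′ on the strand of the gene, with the fixed letters of the motif, or of its reverse complement, in capitals. They are given because the genes that carry the same element differed widely from each other in the comparisons below.

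Hspa5, chr2:34772011-34772057, plus strand: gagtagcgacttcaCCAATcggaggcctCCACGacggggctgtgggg
Hsp90b1, chr10:86705624-86705670, minus strand: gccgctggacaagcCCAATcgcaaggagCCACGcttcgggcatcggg
Hsp90b1, chr10:86705519-86705565, minus strand: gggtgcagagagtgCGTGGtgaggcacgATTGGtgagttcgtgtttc
Calr, chr8:84847061-84847107, minus strand: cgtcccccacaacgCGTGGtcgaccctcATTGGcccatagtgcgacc
Canx, chr11:50325786-50325832, minus strand: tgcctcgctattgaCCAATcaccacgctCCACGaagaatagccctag
Pdia6, chr12:17266477-17266523, plus strand: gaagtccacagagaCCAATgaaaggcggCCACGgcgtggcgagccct
Dnajc3, chr14:118937813-118937859, plus strand: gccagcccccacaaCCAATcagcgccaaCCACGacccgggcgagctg
Creld2, chr15:88819506-88819552, plus strand: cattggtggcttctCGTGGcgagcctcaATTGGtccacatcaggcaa
Syvn1, chr19:6046518-6046564, plus strand: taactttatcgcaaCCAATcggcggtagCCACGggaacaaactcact
Derl3, chr10:75893228-75893274, plus strand: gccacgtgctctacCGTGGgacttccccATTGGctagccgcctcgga

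In Hspa5, the gene of the ER Hsp70 chaperone BiP, the match began 65 bases before the start of the gene, and in Syvn1, which encodes the HRD1 ubiquitin ligase, 44 bases before it. Hsp90b1 was the only one of the 9 genes with 2 matches. A second form of the element, ATTGG and CCACG with 1 base between them, was found in Herpud1 and, 8 bases downstream of the start, in Dnajb11, against 12 of the 27025 genes (0.0444%). The Herpud1 stretch is shown because this gene had one of the lowest ratios of arsenite to control in both genotypes.

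Herpud1, chr8:94386363-94386401, plus strand: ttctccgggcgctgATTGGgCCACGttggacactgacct

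The letters TGACGTGG, which the XBP1 protein can bind, occurred in the promoter of Vcp alone among the 28 genes, against 193 of 27025 (0.714%). A match of letters describes the sequence and is no evidence of binding in these cells.

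Together the 33 genes took 0.718% (control) and 0.721% (arsenite) of the reads in wild type, and 0.918% and 0.874% in the Dot1L null. The total thus differed more between genotypes than with arsenite, but its make-up did not stay the same. The lectin group (Calr, Canx and Uggt1) took 0.129% and 0.183% in wild type, and 0.184% and 0.341% in the null. The sensors with Xbp1 took 0.0454% and 0.00975% in wild type, and 0.0393% and 0.00639% in the null. The chaperones and their co-factors took 0.18% and 0.173% in wild type, but 0.335% and 0.141% in the null. Their untreated null library was thus the highest of the 4 and its arsenite counterpart the lowest.

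**Figure D1:**
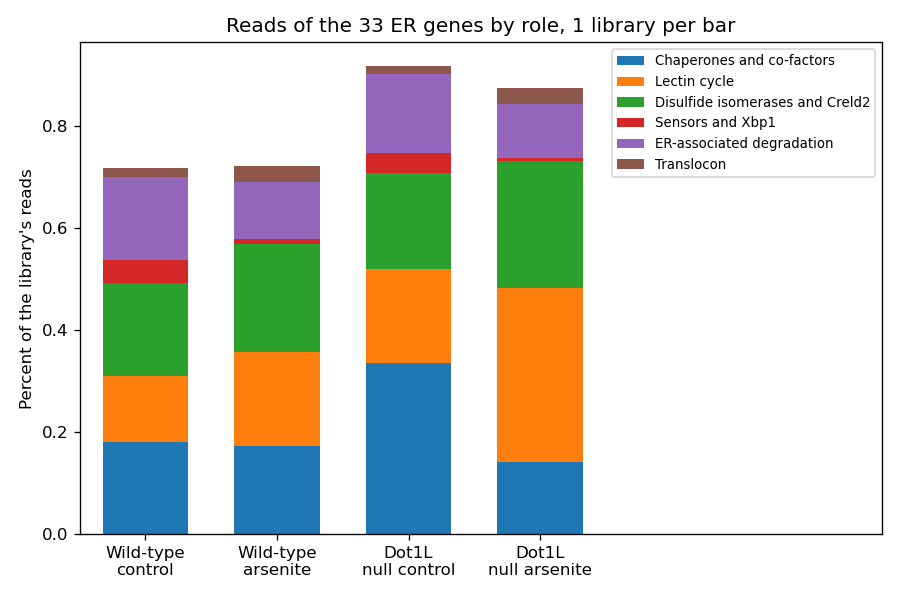
Percent of each library's reads taken by the 33 ER genes (y axis), for the 4 libraries (x axis), with the stacked colours giving the role of the genes. The lectin segment grows from 0.184% to 0.341% between the null libraries while the chaperone segment shrinks from 0.335% to 0.141%.

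The order of levels among the genes differed between control and arsenite libraries. By RPKM, which is scaled to gene length, P4hb, Hspa5 and Calr led the set in the wild-type control at 368, 244 and 218. With arsenite Calr was first at 553, ahead of Pdia3 (298), P4hb (277) and Hspa5 (231). In the null control Hspa5 was first at 585, and with arsenite Calr was first at 1120. Ern1, Dnajb9, Atf6 and Sel1l were in the lowest 5 of the 32 genes above the filter in the arsenite library of the null; in wild type the same held for Ern1, Sel1l, Dnajb9 and Atf6.

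**Figure D2:**
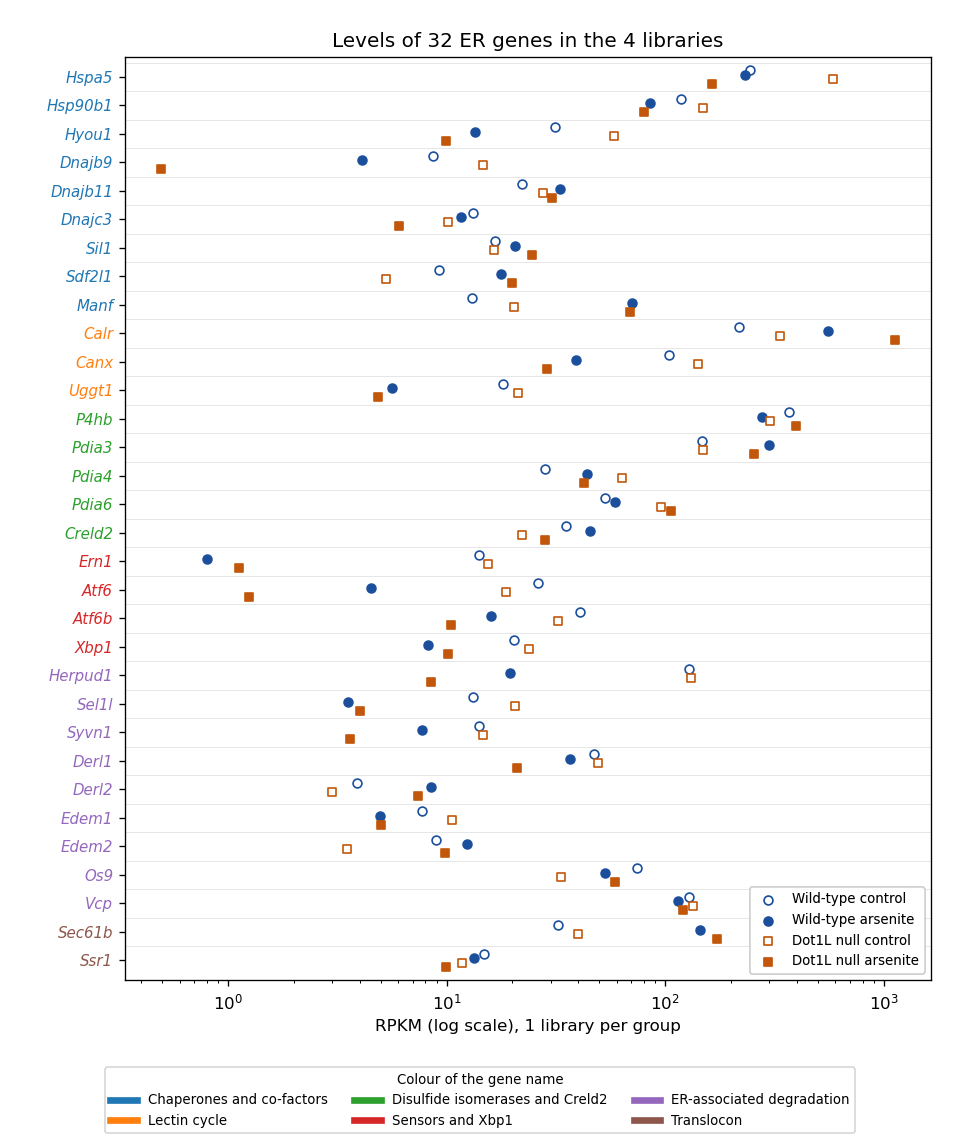
RPKM (x axis, log scale) of the 32 genes above the filter (y axis, gene names coloured by role) in the 4 libraries; open symbols are controls, filled symbols arsenite, circles wild type and squares Dot1L null, and there are no error bars because each point is 1 library. Calr reaches 1120 in the null arsenite library, where Dnajb9 stands at 0.496.

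Differences with arsenite were computed on log2(RPKM + 1), which makes those of weakly expressed genes look smaller than they are, and "higher" and "lower" mean at least 2-fold on that scale. Ratios are of the RPKM themselves. In wild type 4 of the 32 genes (12.5%) were higher with arsenite, against 12.8% of all 12588 genes, and 9 (28.1%) were lower, against 35.7%. In the null 6 (18.8%) were higher, against 15.2%, and 13 (40.6%) were lower, against 37.1%. Manf, Calr and Sec61b were higher in both genotypes, 3 of 32 against 8.4% of all genes, and the 9 genes lower in wild type were lower in the null as well, against 26.3% of all genes. Without further scaling, the set as a whole thus had shares close to those of all genes, furthest from them for genes lower in wild type. Its median was −0.26 in wild type, where that of all genes was −0.56, and −0.61 in the null, where it was −0.53.

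Because the median of all genes lay below 0, the counts were repeated relative to it. In wild type 8 genes (25%) were then higher, against 21.6% of all genes, and 4 (12.5%) lower, against 19.4%. In the null 9 (28.1%) were higher, against 23.4%, and 11 (34.4%) lower, against 23.8%. The differences also followed gene length, in all genes as in these. At 1000 bases the trend over all genes stood at 0.99 in wild type and 0.90 in the null, and at 8000 bases at −1.35 and −1.33. Across the 32 genes, which share their libraries, the Pearson correlation of the log2 difference with log2 length was −0.40 in wild type and −0.34 in the null (Spearman −0.35 and −0.31). With that trend removed, 8 (25%) were higher in wild type, against 14.6% of all genes, and 4 (12.5%) lower, against 17.4%. In the null 8 (25%) were then higher, against 19.4%, and 10 (31.2%) lower, against 21.8%. The shares were thus less close to those of all genes there. The sign of the log2 difference depended on the scaling for 11 genes in wild type (Hspa5, Hsp90b1, Hyou1, Dnajc3, P4hb, Creld2, Derl1, Edem1, Os9, Vcp and Ssr1) and for 6 in the null (Dnajc3, Pdia4, Creld2, Edem1, Vcp and Ssr1), so no direction is drawn for them there beyond the counts above. The strand setting of the counting is not given, and 14 of the 33 genes overlap another annotated gene whose reads may not be separated from theirs. For Hspa5 this is Rabepk, for Pdia3 Catsper2, for Pdia6 Atp6v1c2, for Syvn1 Mrpl49 and for Derl2 Mis12, while Dnajb11, Dnajc3, Sil1, Uggt1, Pdia4, Atf6, Edem1, Os9 and Ssr1 overlap predicted or microRNA genes.

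**Figure D3:**
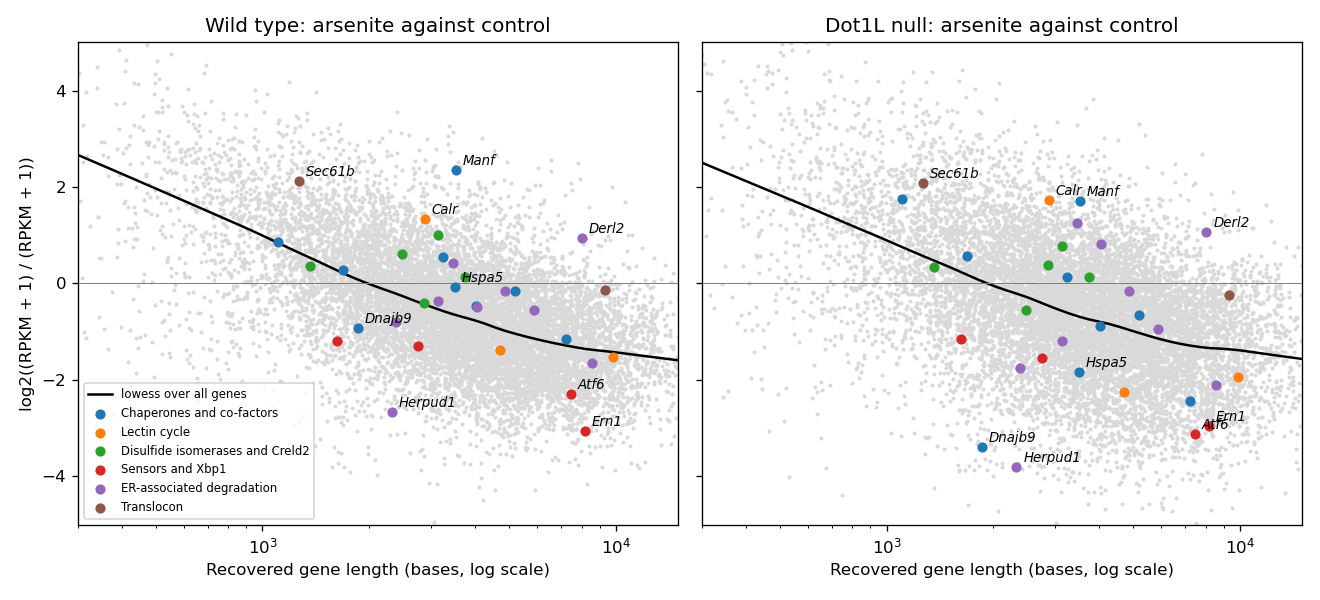
Log2 difference between arsenite and control (y axis) against the gene length recovered from the RPKM steps (x axis, log scale) for wild type (left) and Dot1L null (right); grey points are the 11698 genes used for the trend, apart from the 146 outside the axes in either panel, the line is the trend, and coloured points are the ER genes by role. Manf, Calr and Derl2 lie above the line in both panels, and Herpud1, Ern1, Atf6 and Dnajb9 below it.

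The sensors and their transcription factor were the group with the most uniform difference. All 4 genes were lower with arsenite in both genotypes, as were 26.3% of all genes (35.7% in wild type and 37.1% in the null). Ern1 (chromosome 11, 106397620 to 106487796 in GRCm38.p6) encodes IRE1, the kinase and nuclease that splices Xbp1. It stood at 14 RPKM in the control and 0.802 in the arsenite library of wild type, and at 15.5 and 1.12 in those of the null. Both arsenite libraries lay far below both controls, 17.4-fold (13.8 to 22.3) in wild type and 13.8-fold (11.4 to 16.8) in the null. Atf6 (chromosome 1, 170704457 to 170868585), which encodes the membrane-bound factor cleaved under stress, stood at 26.1, 4.51, 18.7 and 1.25 RPKM in the same order of libraries, which is used throughout. It was 5.78-fold (5.21 to 6.43) lower with arsenite in wild type and 14.9-fold (12.4 to 18.1) lower in the null. Its relative Atf6b stood at 40.7, 15.9, 32.3 and 10.5 RPKM.

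Xbp1 (chromosome 11, 5520641 to 5525993) stood at 20.3 and 8.24 RPKM in wild type and at 23.8 and 10.2 in the null, 2.46-fold (2.08 to 2.94) and 2.34-fold (2.02 to 2.72) lower with arsenite. The table gives totals per gene, so the spliced and unspliced forms of Xbp1 cannot be told apart in it. Ern1 and Atf6 are long genes, at 8173 and 7463 bases, whereas Xbp1 is short at 1624. With the length trend removed, the log2 differences of Ern1 were −1.70 in wild type and −1.62 in the null, those of Atf6 −0.99 and −1.82, those of Atf6b −0.92 and −1.13 and those of Xbp1 −1.48 and −1.39. All 4 genes thus stayed below 0 in both genotypes under every scaling tried.

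Among the chaperones the genotypes differed. Hspa5 (chromosome 2, 34772090 to 34776529) stood at 244 and 231 RPKM in the wild-type libraries but at 585 and 163 in those of the null. The null control thus stood apart from the other 3 libraries. In wild type the ratio of arsenite to control was 0.947 (0.926 to 0.969), and the log2 difference moved from −0.08 to 0.57 with the length trend removed; in the null Hspa5 was 3.59-fold (3.51 to 3.68) lower, with −1.15 after removal. Hyou1, a large Hsp70-type chaperone that also exchanges nucleotide on BiP, had a like profile at 31.2, 13.5, 58.2 and 9.91 RPKM. Its difference in wild type was −1.15 but 0.14 with the length trend removed, and in the null −2.44 and −1.15.

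Dnajb9 (chromosome 12, 44205897 to 44210068), a J-domain partner of BiP that restrains IRE1, stood at 8.69, 4.11, 14.7 and 0.496 RPKM. The last value rests on 11 reads. It was 2.12-fold (1.69 to 2.68) lower with arsenite in wild type, which is −0.92 on the log2 scale and short of the bound there, and 29.7-fold (16.6 to 59.6) lower in the null, the largest ratio among the 32 genes in either genotype. The log2 differences without the length trend were −1.0 and −3.44. Without further scaling, the other J-domain genes differed less with arsenite. Dnajb11 stood at 22.2, 32.9, 27.6 and 30.3 RPKM, and Dnajc3, an inhibitor of eIF2alpha kinases, at 13.2, 11.6, 10.1 and 6.08. With the length trend removed, Dnajb11 was at 1.12 in wild type and 0.73 in the null, and Dnajc3 at 0.88 and 0.38. In wild type Dnajb11 thus lay as far above the trend as Dnajb9 lay below it, or further.

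Hsp90b1, the ER Hsp90 chaperone, was within 2-fold in both genotypes, at 118 and 85.6 RPKM in wild type and 149 and 80.2 in the null. Manf, a small secreted ER protein that is released under stress, had the highest log2 difference of the set in wild type. It stood at 13 and 70.6 RPKM in wild type and at 20.3 and 69.2 in the null. Both arsenite libraries lay above both controls, 5.45-fold (5.17 to 5.74) and 3.41-fold (3.26 to 3.58), and the log2 differences without the length trend were 3.01 and 2.42. The length recovered for Manf, 3524 bases, exceeds its RefSeq span of 3186 bases, so the gene model behind its value is not the RefSeq one. Sdf2l1, a partner of J-domain proteins in the ER, stood at 9.19, 17.7, 5.26 and 20.0 RPKM, but as a gene of 1108 bases it had differences of 0.03 in wild type and 0.99 in the null with the length trend removed. Sil1, a nucleotide exchange factor of BiP, was within 2-fold at 16.7, 20.5, 16.4 and 24.7 RPKM.

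The lectin cycle split. Calr (chromosome 8, 84842088 to 84846931) encodes calreticulin, the soluble lectin and calcium store of the ER, and Canx its membrane-bound relative calnexin. Calr stood at 218 and 553 RPKM in wild type and at 334 and 1120 in the null, 2.54-fold (2.49 to 2.59) and 3.35-fold (3.31 to 3.39) higher with arsenite. Canx stood at 104 and 39.1 RPKM in wild type and at 142 and 28.8 in the null, 2.66-fold (2.55 to 2.79) and 4.93-fold (4.69 to 5.18) lower. The soluble and the membrane-bound lectin thus lay on opposite sides in both genotypes. With the length trend removed Calr was at 1.78 and 2.21 and Canx at −0.45 and −1.33. Both carry the ER stress element shown above. Uggt1, the folding sensor that returns glycoproteins to these lectins, stood at 18.1, 5.64, 21.3 and 4.86 RPKM, or −0.10 and −0.55 on the log2 scale without the length trend.

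Of the 5 genes for disulfide bonds, Pdia3 in wild type was past 2-fold with arsenite, and none was in the null. Of all genes, 12.8% were higher and 35.7% lower in wild type, and 15.2% and 37.1% in the null. Centred on the median of all genes, Pdia3 was past 2-fold in both genotypes (1.57 and 1.30 on the log2 scale) and Pdia4 in wild type (1.18). Pdia3, which works with both lectins, stood at 147 and 298 RPKM in wild type and at 149 and 255 in the null. It was 2.02-fold (1.97 to 2.06) higher with arsenite in wild type and 1.70-fold (1.67 to 1.74) in the null, or 1.54 and 1.34 above the length trend on the log2 scale. P4hb, which is also the beta subunit of the collagen prolyl hydroxylases, stood at 368, 277, 303 and 397 RPKM. Pdia4 stood at 28.3, 44.0, 63.5 and 42.7 RPKM, with the null control again highest. By RPKM, Pdia6 (53.3, 58.9, 95.9 and 106) separated the genotypes rather than the treatments, but this depended on the scaling. Its log2 difference with arsenite was 0.14 in both genotypes, but 0.85 in wild type and 0.89 in the null with the length trend removed. Its genotype differences were then 1.07 untreated and 1.21 with arsenite. Creld2, an ER stress response gene, stood at 35.2, 45.5, 22.2 and 28.3 RPKM, with both null libraries below the wild-type control.

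In ER-associated degradation, Herpud1 (chromosome 8, 94386429 to 94395371), which organises the HRD1 complex, had log2 differences of −2.67 in wild type and −3.80 in the null. It stood at 129, 19.4, 131 and 8.48 RPKM. The controls were alike, while the arsenite libraries were 6.62-fold (6.06 to 7.26) and 15.4-fold (13.6 to 17.6) lower, with −2.48 and −3.59 after removal of the length trend. Sel1l, the adaptor of the complex, stood at 13.2, 3.55, 20.6 and 4.03 RPKM, but with 8555 bases it had −0.27 and −0.75 without the length trend. Syvn1, the ligase itself, stood at 14.1, 7.70, 14.6 and 3.63 RPKM. Its difference was below 2-fold on the log2 scale in wild type (−0.80) and past it in the null (−1.75).

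The derlins, which form the channel out of the ER, did not lie on one side. Derl1 stood at 47.1, 36.6, 49.2 and 21.0 RPKM and was lower in the null, whereas Derl2 stood at 3.90, 8.49, 2.99 and 7.39 and was higher there. Derl2 has a recovered length of 8049 bases and stood 2.30 and 2.41 above the length trend. The mannosidase-like factors also differed: Edem1 stood at 7.69, 4.95, 10.6 and 5.03 RPKM, and Edem2 at 8.93, 12.4, 3.51 and 9.82. Os9, a lectin that delivers glycoproteins to the HRD1 complex, stood at 74.6, 53.0, 33.2 and 59.0 RPKM. Vcp, the ATPase that pulls substrates into the cytosol, was nearly level by RPKM at 128, 115, 134 and 120. With the length trend removed, its log2 differences with arsenite were 0.83 in wild type and 0.80 in the null.

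Of the translocon genes, Sec61b (chromosome 4, 47474661 to 47483233), a small subunit of the channel, stood at 32.2 and 144 RPKM in wild type and at 39.9 and 173 in the null. It was 4.48-fold (4.22 to 4.75) and 4.34-fold (4.12 to 4.57) higher with arsenite, and with the length trend removed the log2 differences were 1.49 and 1.52. Ssr1, a subunit of the translocon-associated complex, stood at 14.8, 13.3, 11.8 and 9.91 RPKM. As a gene of 9306 bases it had differences of 1.26 and 1.14 without the length trend, where its own were −0.14 and −0.23.

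**Figure D4:**
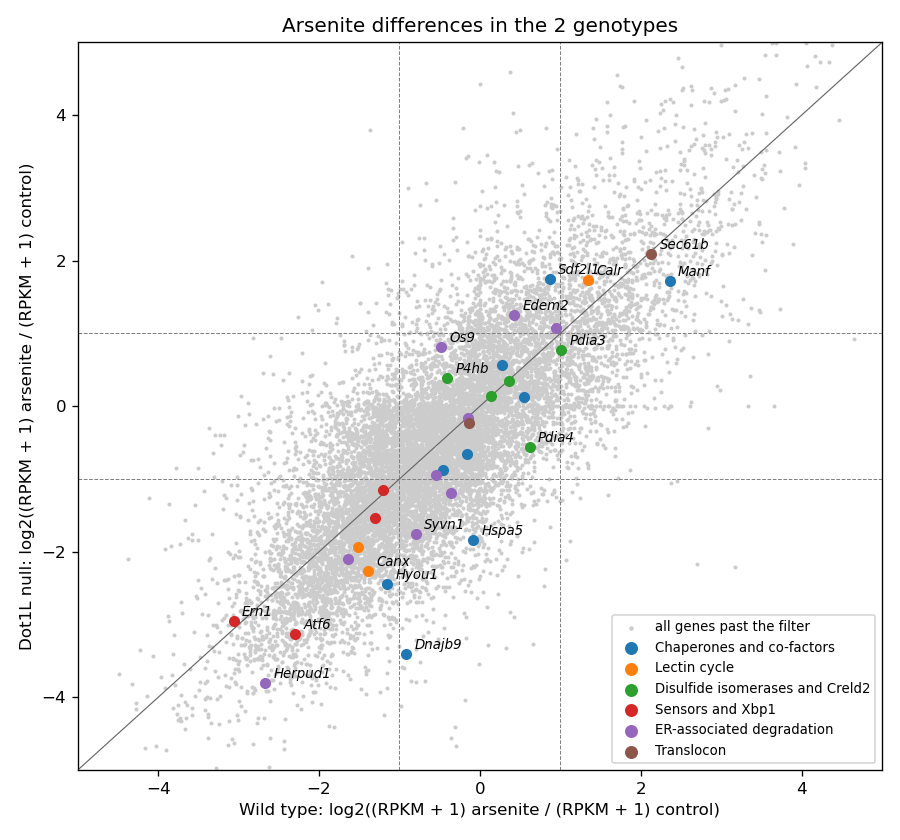
Log2 difference between arsenite and control in wild type (x axis) and in Dot1L null cells (y axis); grey points are all 12588 genes past the filter apart from the 44 outside the axes, coloured points the 32 ER genes by role, dashed lines the 2-fold bounds and the solid line equal differences. Calr, Manf and Sec61b lie in the upper right, the 4 sensor genes in the lower left, and Hspa5 and Dnajb9 well below the line of equal differences.

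Genotypes were then compared directly, a comparison in which the trend with length was nearly flat (slopes of −0.03 and −0.04 per doubling over all genes). The libraries are the same ones as above, so these values are not separate evidence. Between the controls, Hspa5 and Pdia4 were higher in the null, 2 of 32 against 6.45% of all genes, and Edem2 and Os9 lower, 2 against 14.7%. Hspa5 was 2.40-fold (2.37 to 2.42) and Pdia4 2.24-fold (2.17 to 2.33) higher, followed by Hyou1 (1.87-fold, 1.83 to 1.90) and Pdia6 (1.80-fold, 1.76 to 1.84). Edem2 was 2.55-fold (2.34 to 2.77) and Os9 2.24-fold (2.19 to 2.30) lower, but neither stayed past 2-fold with the median of all genes set to 0 (both at −0.97 on the log2 scale), after scaling to the 75th percentile or with the length trend removed (both at −0.91). The median of the 32 genes was 0.10, where that of all genes was −0.17.

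Between the arsenite libraries, Calr was higher in the null at 2.03-fold (1.99 to 2.06), 1 of 32 against 8.75% of all genes. Dnajb9, Atf6 and Herpud1 were lower, 3 against 16.9%. Dnajb9 was 8.27-fold (4.39 to 17.2) lower, on 83 reads in wild type and 11 in the null, Atf6 3.61-fold (2.91 to 4.50) and Herpud1 2.29-fold (1.96 to 2.69). The genes that had set the controls apart no longer did so: Hspa5 was 1.42-fold (1.38 to 1.47) lower in the null, Pdia4 stood at a ratio of 0.971 (0.896 to 1.05) and Os9 at 1.11 (1.05 to 1.18). Pdia6 kept its 1.80-fold (1.71 to 1.89) difference.

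**Figure D5:**
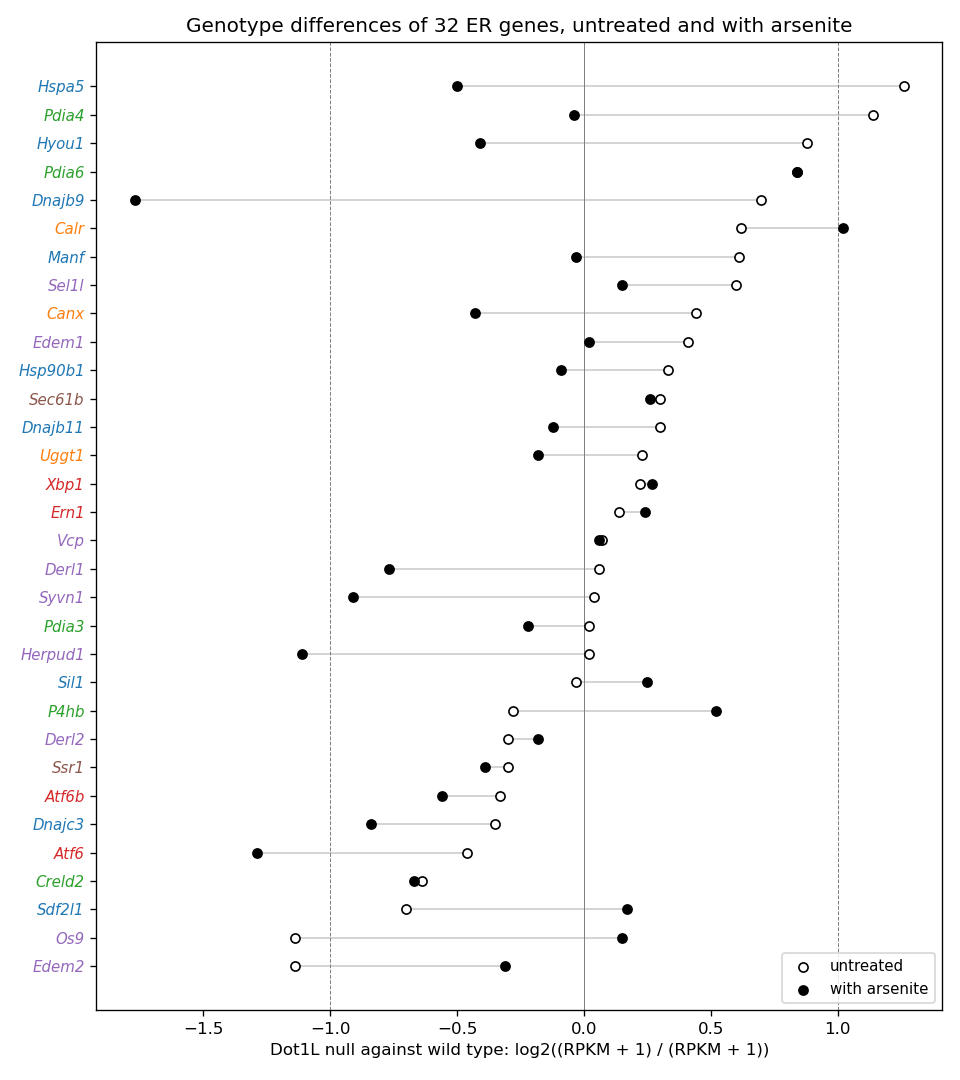
Log2 difference between Dot1L null and wild type (x axis) for the 32 ER genes (y axis, ordered by the untreated difference, with names coloured by role as in the plot of levels), untreated (open) and with arsenite (filled); dashed lines are the 2-fold bounds. Hspa5 moves from 1.26 untreated to −0.50 with arsenite, whereas Pdia6 stands at 0.84 in both.

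The arsenite difference of the null minus that of wild type could not be tested against replicate error. It was at least 1 on the log2 scale for Os9 (1.29), 1 of 32 against 12.1% of all genes. It was at most −1 for Dnajb9 (−2.47), Hspa5 (−1.76), Hyou1 (−1.29), Pdia4 (−1.18) and Herpud1 (−1.13), 5 of 32 (15.6%) against 12.8%. Removal of the length trend left these values between −2.38 and −1.04, and that of Os9 at 1.37. Of the sensor genes, Atf6 was at −0.83, or −1.29 with a pseudocount of 0.1, Atf6b at −0.23, Xbp1 at 0.05 and Ern1 at 0.10. The 8 genes past the filter that carry the ER stress element in the window shown had a median of −0.45, and the other 19 with a promoter entry −0.08. Those 19 include Herpud1 and Dnajb11, which carry the second form of the element. Those 8 ranged from Hspa5 to Calr (0.40), with Syvn1 at −0.95. Of the genes without an entry, Hyou1 was at −1.29, Atf6 and Derl1 at −0.83, Manf at −0.64 and Sil1 at 0.28. For arsenite against control, the medians of the same 8 and 19 genes were −0.12 and −0.41 in wild type. In the null they were −0.77 and −0.23. Between the controls they were 0.39 and 0.07. A link between the element and these differences was not tested.

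Other genes of the same machinery, from lists made by name, gave the setting. In the PERK branch 5 of 8 genes were lower with arsenite in wild type, against 35.7% of all genes, and 7 in the null, against 37.1%. None was higher, against 12.8% and 15.2% of all genes. Eif2ak3, the sensor itself, stood at 3.46, 0.595, 3.31 and 0.186 RPKM, or −0.40 and −0.79 on the log2 scale without the length trend. Atf4, its main transcription factor, was within 2-fold in wild type (477 and 421 RPKM) and past it in the null (430 and 208). Ddit3, which encodes CHOP, stood at 171, 189, 172 and 94.8 RPKM, and its wild-type difference of 0.15 turned to −0.05 without the length trend. Ppp1r15a, the phosphatase subunit that ends the response, stood at 79.8, 36.6, 141 and 17.8 RPKM. The list had a median of −1.29 in wild type and −2.39 in the null, and of −0.52 and −1.51 without the length trend.

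The proteases that cleave ATF6 were lower with arsenite in both genotypes, except that Mbtps2 in wild type turned to 0.16 on the log2 scale with the length trend removed. Mbtps1 stood at 53.6, 16.0, 90.7 and 38.3 RPKM and the long gene Mbtps2 at 2.50, 0.448, 5.41 and 0.616. Their list, with the NF-Y subunits that bind the CCAAT letters of the element, had 4 of 11 genes lower in wild type, a share near the 35.7% of all genes, and 6 in the null, where 37.1% of all genes were lower, against 0 and 1 higher. Its medians of −0.55 and −1.22 became 0.00 and −0.36 with the length trend removed. Of all genes, 35.7% were lower and 12.8% higher in wild type, and 37.1% and 15.2% in the null. Of the remaining 21 degradation genes, 10 were lower and 2 higher in wild type and 11 and 3 in the null. Their medians of −0.75 and −1.01 shrank to −0.16 and −0.31 with the length trend removed. March6, a ligase of another degradation branch, stood at 21.7, 2.61, 18.3 and 1.57 RPKM.

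Genes of protein entry and of glycan transfer are read against 12.8% (wild type) and 15.2% (null) of all genes higher. For lower genes the shares are 35.7% and 37.1%. Of 22 targeting and translocon genes, 8 were higher and 1 lower in wild type (median 0.75, and 1.17 without the length trend), and 4 and 3 in the null (0.06 and 0.64). Sec61g, a small channel subunit like Sec61b, stood at 15.9, 146, 20.9 and 167 RPKM. Of 14 glycosylation genes, 4 were higher in each genotype and 0 and 1 lower, with medians of 0.03 and −0.07. Dad1, an oligosaccharyltransferase subunit, stood at 7.55, 47.8, 7.90 and 52.1 RPKM. The short genes Krtcap2, Tmem258 and Ostc were higher too, but none stayed past 2-fold with the length trend removed: Krtcap2 turned to −0.23 and −0.64, Tmem258 was at 0.44 and 0.83 and Ostc at 0.40 and 0.36. Of 20 further oxidoreductases and prolyl isomerases, 6 were higher and 3 lower in wild type and 7 and 5 in the null. Fkbp2, an ER prolyl isomerase of 663 bases, stood at 56.3, 555, 36.5 and 463 RPKM, whereas Ero1l, the oxidase that recharges P4hb, stood at 29.1, 13.6, 67.7 and 7.99.

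Cytosolic chaperones served for comparison with another compartment. Of 27 such genes, wild type had 5 higher and 4 lower with arsenite (median 0.36), against 12.8% and 35.7% of all genes. The null had 1 higher and 11 lower (median −0.54), against 15.2% and 37.1%. Their difference of the arsenite effects had a median of −0.75, against −0.32 for the ER genes and −0.06 for all genes. It was at or below −1 for 10 of 27, against 12.8% of all genes. Hspb1 stood at 11.1, 43.6, 32.2 and 54.4 RPKM, and Cct6a, a chaperonin subunit, at 234, 105, 314 and 20.5.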

How the data were processed

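RNA-seq values of 4 libraries were used; the 2 H3K27ac libraries of the series were not analysed here. The authors deposited RPKM, and the submitters' processing notes name TopHat, HTSeq, Bowtie, deepTools and the build mm10 without versions or roles. No source used here gives the gene annotation or the strand setting of the counting. RNA was depleted of rRNA for strand-specific paired-end libraries per the labels' protocols, whereas the molecule label reads polyA RNA.

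Library depth was recovered as the most frequent inverse of RPKM times span over small RNA genes, and gene length as the shortest that gave whole reads in every library; it was found for all 21617 genes above 0. Of 521 small RNA genes with a span, 359 had a recovered length equal to it, so some lengths are a fraction of the true one. Recovered reads served for exact conditional (Clopper-Pearson) 95% intervals of ratios, which treat reads as independent molecules, and for length.

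Log2 differences used a pseudocount of 1 RPKM over genes that reached 1 RPKM in some library, with no further scaling. The length trend was a lowess (fraction 0.3, statsmodels 0.14.6) over 11698 genes of at least 200 bases and 100 reads. No test was run, with 1 library per group. The scripts were tested on simulated data. Symbols were found for 35449 IDs. The members and lists were chosen with earlier results of these data known; all 33 are described, and of each other list up to 4 genes with the largest differences in each genotype, plus Eif2ak3, Atf4, Ddit3, Ppp1r15a, Mbtps1 and Mbtps2, were candidates for naming. Protein sequences were not used here. The 6 alternatives are in the closing section.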

Additional observations from a re-analysis of the deposited data

Results flagged for a closer look

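In 3 genes the arsenite library lay below its control in one genotype and above it in the other, with counting intervals on opposite sides of 1. The difference was not tested against replicate error. The share of all genes that meet the same rule was not counted, so it is not known whether 3 genes are many or few. The ratio of arsenite to control was 0.752 in wild type and 1.31 in the null for P4hb, 1.55 and 0.672 for Pdia4, and 0.711 and 1.78 for Os9. The opposite directions depended on scaling: centred on the median of all genes, P4hb was at 0.15 and Os9 at 0.07 in wild type on the log2 scale, which puts both genotypes above 0, and Pdia4 in the null was at −0.03 then and at 0.06 after 75th percentile scaling. For Os9 it is the null control that lies apart from the other 3 libraries, at 33.2 RPKM against 53.0 to 74.6. For Pdia4 the wild-type control was lowest at 28.3 RPKM and the null control highest at 63.5. The arsenite libraries lay between them, at 44.0 in wild type and 42.7 in the null.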

How the results depend on the processing

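All 46 single-gene differences past 2-fold stayed past it the same way with filters at an RPKM of 5 or of above 0 and with a pseudocount of 0.1. That pseudocount moved 19 of the 160 values, such as Dnajb9 in the null (−3.40 to −4.64) and Ern1 in wild type (−3.06 to −3.96), and made Dnajb9 the lowest in the null, below Herpud1 (−3.93). It also raised the counts with arsenite in wild type to 5 higher and 10 lower, in the null to 14 lower, between the arsenite libraries to 4 lower, and of the differences between genotypes to 7 lower. Of these 46, 36 stayed past 2-fold the same way when the all-gene median was set to 0, 37 after scaling to the 75th percentile and 33 with the length trend removed, where 1 reversed: Hyou1 with arsenite in wild type, at 0.14. With arsenite in wild type, 8 genes in place of 4 were higher under each of these 3 settings, and 4, 5 and 4 in place of 9 were lower. In the null, 10 in place of 6 were higher after 75th percentile scaling, and 9 after centring. Between the controls, 4 in place of 2 were higher after centring and with the length trend removed, and 0 in place of 2 (Edem2 and Os9) were lower under all 3. With arsenite, 2 in place of 1 were higher in the null under all 3, and 1 in place of 3 lower with the length trend removed. The cause was not tested. Depth limits the low values: Dnajb9 in the null with arsenite rests on 11 reads and Ern1 on 71 in wild type with arsenite. No paired analysis was possible because each group holds 1 library.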
